A study of Mus musculus with 8 samples.

Results

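The 10 genes described here encode transcription factors of resting (central) T cells and Treg, and the ID proteins that act on E protein factors: Tcf7 (encoding TCF-1), Lef1, Satb1, Bach2, Foxp1, Id2, Id3, Ikzf2 (Helios), Ikzf4 (Eos) and Ikzf1 (Ikaros). They were taken by gene name from 38215 genes, and all 8 transcripts of Tcf7 and Lef1 were taken from 92351 transcripts. The RNAseq libraries compare FoxP3+ Treg sorted from bone marrow (BM-Treg) with those sorted from spleen (SP-Treg). Both groups held 4 libraries from untreated mice, whose genotype the labels give as C57Bl/6. The study's figure legend on the RNAseq gives the strain as B6.FoxP3-GFP, in which a green fluorescent protein marks cells that express FoxP3, and the age as 12 weeks. The study's methods describe its mice as female unless stated otherwise, whereas the labels of 5 libraries say male. From each sample 15 ng of RNA was amplified by SPIA, an isothermal method with a single primer, and read from a single end over 80 nt. BM-Treg replicates 1, 2 and 3 belonged to batch 1 and were labelled female, whereas batch 3, labelled male, held all of SP-Treg and BM-Treg replicate 4. Batch and labelled sex therefore cannot be told apart, and values within batch 3 (BM-Treg 4 against the 4 SP-Treg libraries) are given for the 10 factors, their ratios and the list genes named as past the threshold.

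TCF-1 and LEF1 are HMG box factors that bind the same DNA letters and recruit either beta-catenin or corepressors of the TLE family. Both are abundant in naive, memory and resting T cells and decline as T cells differentiate into effector cells, and in Treg they mark cells of the central compartment. SATB1 organises chromatin in T cells, BACH2 restrains effector genes, FOXP1 keeps T cells quiescent, ID2 and ID3 hold E proteins off the DNA, and Helios, Eos and Ikaros are zinc finger factors of the Ikaros family, the former pair of which is typical of Treg.

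Expected counts, the estimated numbers of reads per gene, summed to between 12427136 and 21921252 in the BM-Treg libraries and between 12924964 and 14121975 in the SP-Treg libraries. Levels are given as CPM, the expected counts of a gene scaled to a common library size. The cells carried the markers of their label. The 8 Treg and CD4 T cell markers summed to between 5777 and 7626 CPM in every library, and Foxp3 was between 1274 and 2083 CPM. Of the 8, 0 passed the threshold of an adjusted p below 0.05 with edgeR or limma-voom, 1 had an unadjusted p below 0.05 with edgeR, and DESeq2 called the same 1, Il2ra, which had a log2 fold change of BM-Treg over SP-Treg of -0.62 (edgeR adjusted p = 0.0803). In bulk RNA, fewer cells of a type and less RNA per cell cannot be told apart.

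Some libraries departed from their labels or from the rest of their group. Xist, the RNA of the inactive X chromosome, was at 1232, 2270.1 and 2275 CPM in BM-Treg replicates 1, 2 and 3 and at no more than 2.63 CPM in the libraries labelled male. The 4 Y-linked genes summed to 154, 63.4 and 2.02 CPM in the same BM-Treg libraries, against 234 to 286 CPM in the libraries labelled male. BM-Treg 1 and BM-Treg 2, labelled female, thus also held Y-linked transcripts, and the counts of genes and factors past the threshold, with the log2 fold changes of Tcf7, Satb1, Bach2 and Id2, are also given without this pair. Ratios, transcript levels and shares were not fitted without it. Among the markers of other cells, 8 B cell genes summed to 153 CPM in SP-Treg 2 and to between 15.6 and 32.5 CPM in the other libraries. In SP-Treg 2 the highest of them was Cd22, at 43.3 CPM. The 8 erythroid genes, of which Hbb-b1 had the highest mean over all libraries, summed to between 15.2 and 34.1 CPM in BM-Treg, to 2.66 CPM in SP-Treg 1 and to between 191 and 463 CPM in the remaining SP-Treg libraries. The SP-Treg titles carry number ranges that overlap between libraries, with no statement of what the numbers are, and neither they nor the BM-Treg titles say whether a library came from a separate animal. The study's methods call the 4 libraries of a condition biological replicates, while its figure legend gives 3 per tissue for a heat map. The SD and p-values measure the spread between these samples. If some SP-Treg libraries share animals, which the labels do not say, this is not the spread between separate animals.

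Of the 10 factors, all of which passed the filter on low counts, 3 differed between the tissues at an adjusted p below 0.05 (edgeR, Benjamini-Hochberg over 13397 genes): Tcf7 and Satb1 were lower in BM-Treg and Id2 was higher. Across all genes tested, 8.75% differed at this threshold, 3.72% being higher and 5.02% lower in BM-Treg. The libraries of the 2 tissues did not overlap for 3 of the factors, Tcf7, Satb1 and Id3, each lower in BM-Treg, as against 16.2% of all genes tested, of which 8.57% were lower and 7.58% higher in BM-Treg. That set depends on the scale. In FPKM, a level per transcript length and library depth, 4 factors had no overlap (14.2% of all genes tested): Tcf7 and Satb1, with BM-Treg below SP-Treg, and Id2 and Ikzf1, with BM-Treg above. Lef1, Bach2, Foxp1, Id3, Ikzf2, Ikzf4 and Ikzf1 did not pass the threshold. Without BM-Treg 1 and BM-Treg 2, the factors past the threshold were again Tcf7, Satb1 and Id2, while the number of genes past it moved from 1172 to 312. With batch as a term in the model, and in batch 3 alone, Tcf7 was the only factor of the 10 past the threshold, which 258 of 13397 and 79 of 14759 genes passed. In both fits the contrast of the tissues rests on 1 BM-Treg library, BM-Treg 4.

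**Figure D1:**
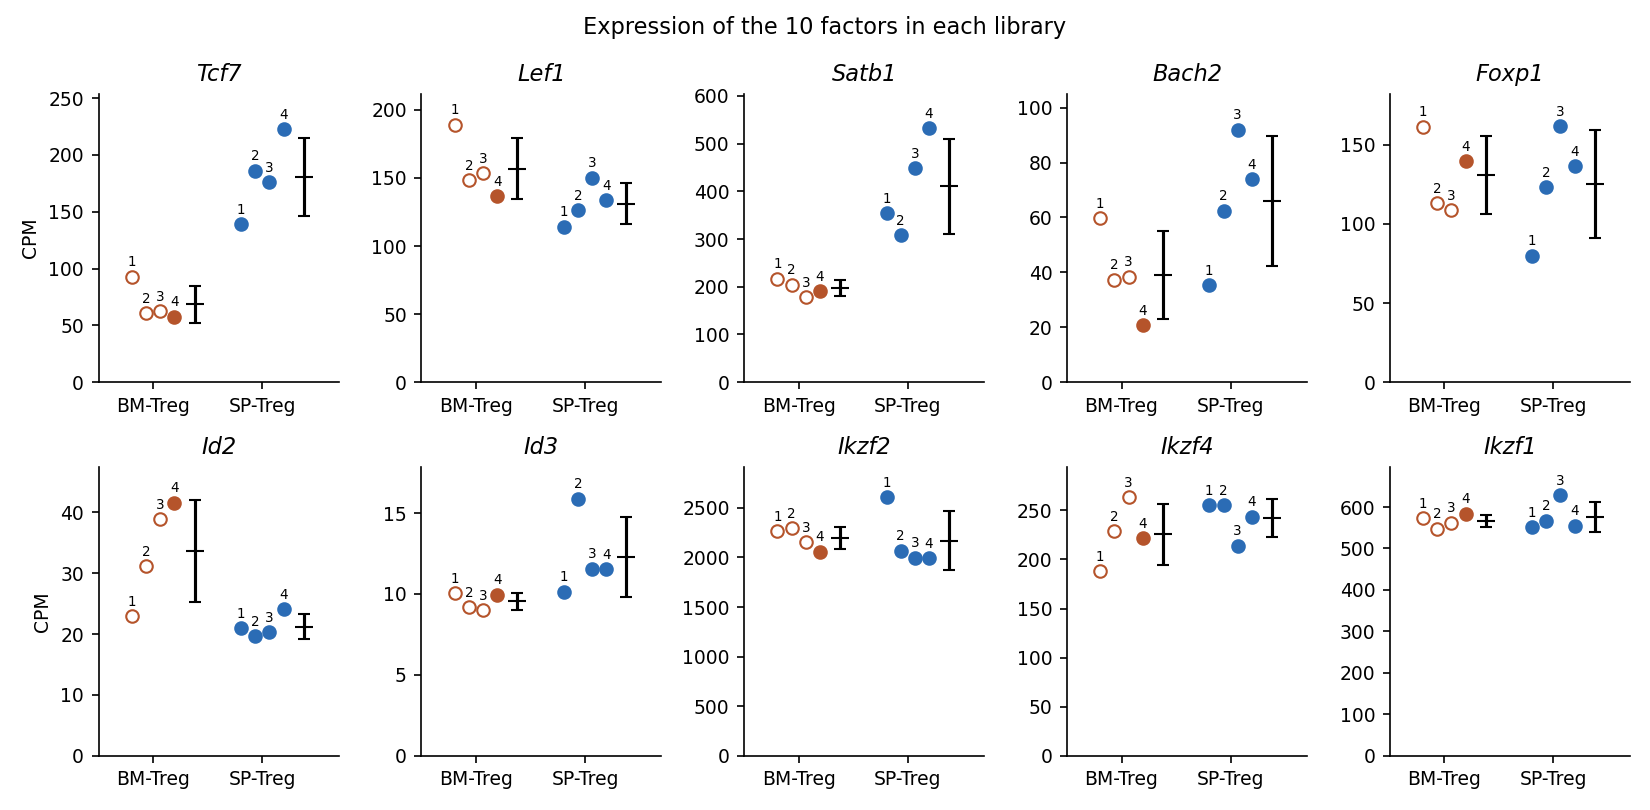
CPM of each of the 10 factors in the 4 BM-Treg and 4 SP-Treg libraries, numbered by replicate, with open circles for libraries labelled female and filled circles for those labelled male, and with the mean and SD of each group as a bar at its right. Each BM-Treg library lay below each SP-Treg library for Tcf7 (at most 92.9 against at least 139 CPM) and Satb1 (at most 217 against at least 308 CPM), whereas the groups overlapped for Lef1, Ikzf2 and Ikzf1.

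TCF-1 is encoded by Tcf7 (ENSMUSG00000000782) on the minus strand of chromosome 11, at chr11:52252371-52283014 in GRCm38. Tcf7 stood at 92.9, 60.8, 62.5 and 57.6 CPM in BM-Treg replicates 1 to 4 and at 139, 186, 176 and 222 CPM in SP-Treg replicates 1 to 4. The highest BM-Treg library, BM-Treg 1, remained below the lowest SP-Treg library, SP-Treg 1. Tcf7 was 2.64-fold higher in SP-Treg (log2 fold change of BM-Treg over SP-Treg -1.40, 95% confidence interval -1.77 to -1.03, edgeR adjusted p = 0.000900). The log2 fold change within batch 3 was -1.63, and without BM-Treg 1 and BM-Treg 2 it was -1.56. BM-Treg 1, the library that stood above its group in Tcf7, was among those labelled female that held Y-linked transcripts, and whether the 2 are related was not tested.

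LEF1 is the HMG box relative of TCF-1, and its gene did not pass the threshold. Lef1 (ENSMUSG00000027985, plus strand, chr3:131110471-131224356) was at 189, 148, 153 and 137 CPM in BM-Treg replicates 1 to 4 and at 114, 126, 150.2 and 134 CPM in SP-Treg replicates 1 to 4. The groups overlapped, since SP-Treg 3 exceeded BM-Treg 2 and BM-Treg 4. The log2 fold change was 0.26, with a 95% confidence interval of 0.01 to 0.51 that is not corrected for the number of genes (edgeR adjusted p = 0.202), and within batch 3 it was 0.07. A decrease of Lef1 in BM-Treg of the size seen for Tcf7 lay outside this interval.

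The pair was also compared within each library. The ratio of Tcf7 to Lef1 in FPKM was 0.646, 0.572, 0.558 and 0.599 in BM-Treg replicates 1 to 4 and 1.60, 2.04, 1.56 and 2.05 in SP-Treg replicates 1 to 4. By gene total, Lef1 was thus the more abundant of the pair per length in every BM-Treg library and Tcf7 in every SP-Treg library. The Lef1 total includes ENSMUST00000132737 and ENSMUST00000136147, which have no annotated coding bases and were at 6.35 and 17.7 FPKM in BM-Treg 1. In that library ENSMUST00000029611, the only coding transcript of Lef1 above 0, was at 40.63 FPKM, below Tcf7 at 41.77 FPKM. In the other BM-Treg libraries this transcript alone exceeded Tcf7. The mean log2 ratio of -0.75 ± 0.09 (SD, n = 4) in BM-Treg stood against 0.84 ± 0.22 (SD, n = 4) in SP-Treg, a difference of -1.60 (exact two-sided permutation p = 0.0286, the smallest that the 70 splits of 8 libraries allow). Adjusted over the 6 ratios examined, this exact p was 0.0571 and did not pass 0.05. Within batch 3 the difference was -1.58.

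Tcf7 had 2 transcripts, both protein-coding in GENCODE M21 and annotated there with the same start codon and the same 909 coding bases. This annotation does not tell the long and short forms of TCF-1 protein apart, and whether the shares do was not tested. The 2 transcripts differ in their first exons and in the length of the last exon. The sequences around both starts are shown because the transcripts are told apart there. They are RefSeq promoter sequences of GRCm38.p6 on the minus strand, written 5′ to 3′, with the printed bases of the first GENCODE exon in capitals. The upstream window, chr11:52282965-52283264, leads into ENSMUST00000109071. It is printed only over chr11:52282985-52283264, which holds 30 bases of that first exon and not all of it. A window is set by an annotated start, and its lower-case bases need not be promoter. From the lower-case atg of the upstream window, an open reading frame runs into the capitals without a stop codon. This frame begins before the first base of ENSMUST00000109071 and lies outside its 909 annotated coding bases. Whether it is translated was not tested. The downstream window, chr11:52282546-52282845, leads into ENSMUST00000086844, whose first exon begins 24 bases after the RefSeq start.
Tcf7 upstream start: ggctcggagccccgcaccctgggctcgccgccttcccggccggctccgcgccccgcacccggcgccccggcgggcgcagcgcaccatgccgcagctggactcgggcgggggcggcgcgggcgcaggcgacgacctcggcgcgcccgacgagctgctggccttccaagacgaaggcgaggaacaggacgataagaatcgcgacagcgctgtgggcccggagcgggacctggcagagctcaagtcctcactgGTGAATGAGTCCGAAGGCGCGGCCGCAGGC
Tcf7 downstream start: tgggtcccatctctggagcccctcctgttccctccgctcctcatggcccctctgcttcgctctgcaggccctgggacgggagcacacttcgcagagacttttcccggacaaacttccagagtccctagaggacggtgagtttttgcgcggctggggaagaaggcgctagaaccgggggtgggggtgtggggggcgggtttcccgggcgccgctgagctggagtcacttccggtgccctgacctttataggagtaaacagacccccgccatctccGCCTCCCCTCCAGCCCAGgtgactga
The downstream transcript took 91.7%, 84.7%, 92.2% and 91.3% of the expected counts of Tcf7 in BM-Treg replicates 1 to 4 and 88.0%, 84.7%, 87.5% and 93.0% in SP-Treg replicates 1 to 4. The groups overlapped, and the rest of the counts went to the upstream transcript, which was highest, at 15.3%, in BM-Treg 2 and in SP-Treg 2. The mean share of the downstream transcript was 90.0% ± 3.52 (SD, n = 4) in BM-Treg as against 88.3% ± 3.44 (SD, n = 4) in SP-Treg (exact two-sided permutation p = 0.514), a difference of 1.67 percentage points that ran from 0.468 without SP-Treg 2 to 3.42 without BM-Treg 2. By level, ENSMUST00000086844 had a log2 fold change of -1.38 (edgeR adjusted p = 0.0532 over all transcripts) and ENSMUST00000109071 one of -1.62 (edgeR adjusted p = 0.0735), and neither passed the threshold.

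Lef1 had 6 transcripts in the tables, 4 protein-coding and 2 annotated as retained introns, among 8 in GENCODE M21. ENSMUST00000029611, which holds all 12 exons of the full coding form, took 70.5%, 71.3%, 77.2% and 72.7% of the expected counts in BM-Treg replicates 1 to 4 and 67.4%, 79.2%, 65.8% and 50.4% in SP-Treg replicates 1 to 4. SP-Treg 4 was the lowest library and SP-Treg 2 the highest, so that the BM-Treg values lay within the range of SP-Treg. The means were 72.9% ± 3.001 (SD, n = 4) and 65.7% ± 11.8 (SD, n = 4), with an exact two-sided permutation p of 0.314, and their difference of 7.24 percentage points was 11.7 without SP-Treg 2 and 2.14 without SP-Treg 4. Its level had a log2 fold change of 0.41 (edgeR adjusted p = 0.338).

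A start inside the first intron of Lef1 serves 3 of the transcripts, among them ENSMUST00000098611, which encodes a shorter protein. Its RefSeq promoter window lies at chr3:131112541-131112840 on the plus strand of GRCm38.p6 and is printed because a transcript that starts there was seen almost only in a few libraries. Capitals mark the first exon of ENSMUST00000098611.
Lef1 internal start: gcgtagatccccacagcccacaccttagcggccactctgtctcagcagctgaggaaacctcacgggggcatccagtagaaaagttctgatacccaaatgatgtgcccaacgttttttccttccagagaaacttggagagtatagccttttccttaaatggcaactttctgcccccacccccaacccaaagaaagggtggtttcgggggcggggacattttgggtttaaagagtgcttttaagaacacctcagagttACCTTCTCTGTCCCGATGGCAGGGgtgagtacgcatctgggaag
ENSMUST00000098611 had 0, 0, 21.8 and 0.10 expected counts in BM-Treg replicates 1 to 4 and 0, 0, 97.2 and 324 in SP-Treg replicates 1 to 4. It reached 17.8% of Lef1 in SP-Treg 4 and 5.42% in SP-Treg 3, and no more than 0.622% in any other library. The transcript did not pass the filter on low counts and was not tested. The retained intron transcripts from this start, ENSMUST00000132737 and ENSMUST00000136147, took 13.6% ± 4.72 and 12.3% ± 4.54 of Lef1 in BM-Treg and 11.6% ± 4.43 and 15.6% ± 2.77 in SP-Treg (SD, n = 4 each). In batch 3, the share of ENSMUST00000136147 was 7.21% in BM-Treg 4, below the range of 13.9% to 19.8% in SP-Treg, and that of ENSMUST00000132737 was 20.0%, above the range of 6.88% to 16.4%.

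Exon 6 of Lef1, a coding exon of 84 bases at chr3:131191023-131191106 on the plus strand of GRCm38, is absent from ENSMUST00000066849 and ENSMUST00000106341. It is printed from GENCODE M21 as the stretch by which the forms with and without it are told apart.
Lef1 exon 6: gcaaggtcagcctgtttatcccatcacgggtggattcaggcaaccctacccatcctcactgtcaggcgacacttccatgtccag
ENSMUST00000066849, which differs from the full form by this exon alone, was listed at 0 in every library. ENSMUST00000106341, which lacks exon 11 as well, took between 0% and 3.85% of Lef1. Nearly all expected counts on coding Lef1 transcripts therefore went to forms that include exon 6. With 80 nt reads from a single end, the split between transcripts that overlap is an estimate.

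**Figure D2:**
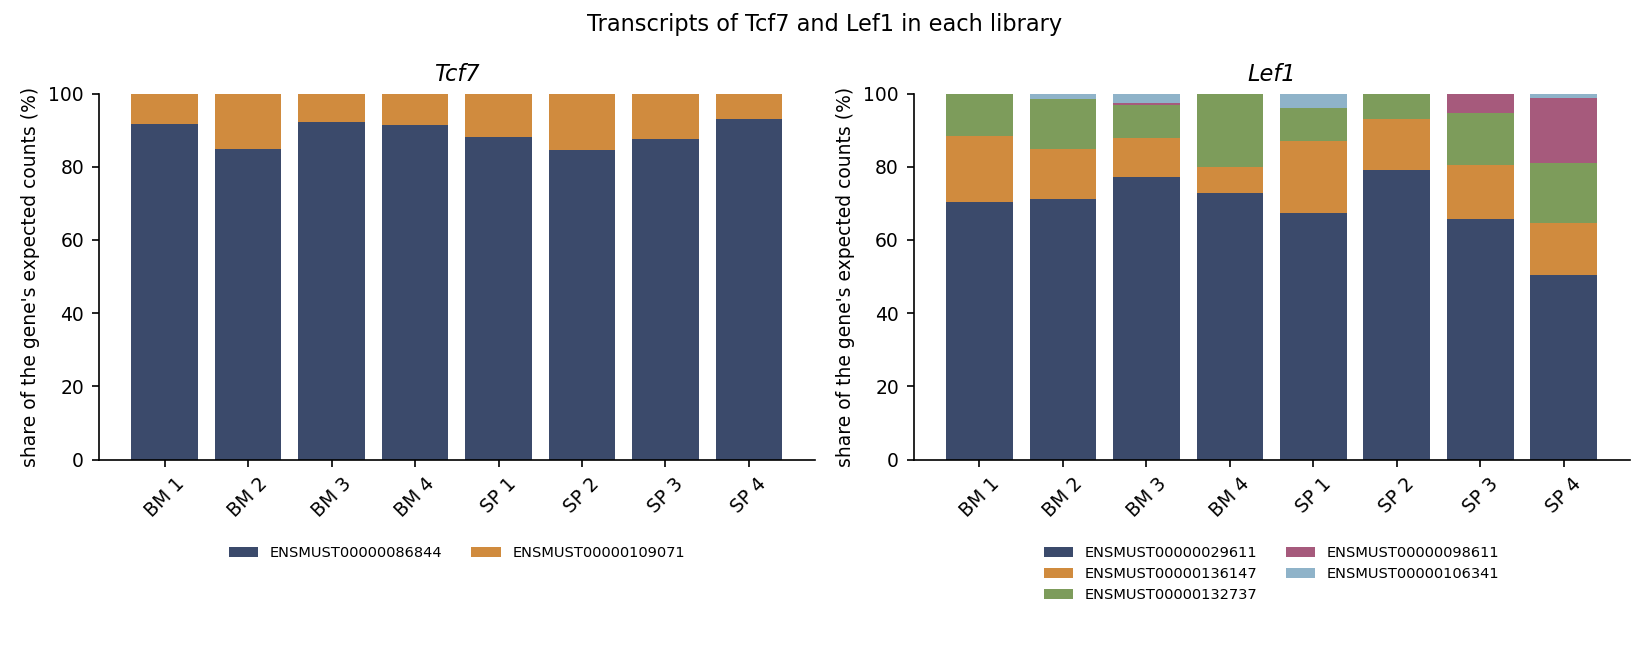
Share in percent of the expected counts of Tcf7 (left) and Lef1 (right) that each transcript took in each library, as stacked bars. The downstream transcript of Tcf7 (ENSMUST00000086844) took between 84.7% and 93.0% in all 8 libraries, and ENSMUST00000098611 of Lef1 reached 17.8% in SP-Treg 4.

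Across all 28756 transcripts tested, 42 (0.146%) passed the adjusted threshold with edgeR, and 3388 (11.8%) had an unadjusted p below 0.05. The count of 42 was not stable: it was 0 without BM-Treg 2, 1 without BM-Treg 1, and 125 with batch as a term. Of the 6 transcripts of Tcf7 and Lef1 that were tested, 0 passed with edgeR, 3 had an unadjusted p below 0.05, and 1, ENSMUST00000086844, passed with limma-voom. Of the 5 transcript shares tested, 0 passed the exact permutation test, and 0 had an unadjusted p below 0.05 (adjusted p = 0.571 for each).

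SATB1 and FOXP1 act on chromatin and quiescence. Satb1 (ENSMUSG00000023927, minus strand, chr17:51736187-51833290) was at 217, 204, 178 and 191 CPM in BM-Treg replicates 1 to 4 and at 354, 308, 449 and 532 CPM in SP-Treg replicates 1 to 4. The groups did not overlap, and SP-Treg varied more among its libraries than BM-Treg. Satb1 was 2.08-fold higher in SP-Treg (log2 fold change -1.06, 95% confidence interval -1.38 to -0.73, edgeR adjusted p = 0.00116). Within batch 3 the log2 fold change was -1.07, of the same size, but the adjusted p was 0.0598 with batch as a term and 0.133 in batch 3 alone, where the spread comes from SP-Treg only (edgeR). Leaving out BM-Treg 1 and BM-Treg 2 gave a log2 fold change of -1.13 for Satb1 (edgeR adjusted p = 0.0254).

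Foxp1 (ENSMUSG00000030067, minus strand, chr6:98925338-99522721) was at 161, 113, 109 and 139.7 CPM in BM-Treg replicates 1 to 4 and at 79.9, 123, 162 and 136 CPM in SP-Treg replicates 1 to 4. SP-Treg held both the lowest and the highest library, SP-Treg 1 and SP-Treg 3, so that the groups overlapped throughout. Its log2 fold change of 0.06, or 0.20 within batch 3, did not pass (edgeR adjusted p = 0.892). In FPKM, the Satb1 to Foxp1 ratio was 1.23, 1.87, 1.63 and 1.16 in BM-Treg and 4.70, 2.20, 2.53 and 3.75 in SP-Treg. Every BM-Treg ratio was below every SP-Treg ratio, with a difference in the mean log2 ratio of -1.12 (exact permutation p = 0.0286, adjusted over 6 ratios 0.0571) and of -1.44 within batch 3.

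BACH2 represses effector programmes. Bach2 (ENSMUSG00000040270, plus strand, chr4:32238804-32586108) was at 59.7, 37.3, 38.4 and 20.7 CPM in BM-Treg replicates 1 to 4 and at 35.4, 62.4, 92.0 and 73.9 CPM in SP-Treg replicates 1 to 4. SP-Treg 1 lay within the range of BM-Treg, whereas the other SP-Treg libraries lay above it. Bach2 had the largest standard error of the 10 factors (log2 fold change -0.75, SE 0.37, edgeR adjusted p = 0.278), and its 95% confidence interval, not corrected for the number of genes, ran from -1.62 to 0.12. Within batch 3 the log2 fold change was -1.58, and without BM-Treg 1 and BM-Treg 2 it was -1.11 (edgeR adjusted p = 0.251). The ratio of Bach2 to Prdm1, which encodes the effector factor BLIMP-1, differed by -0.73 on the log2 scale (exact permutation p = 0.257, adjusted over 6 ratios 0.386), and by -1.07 within batch 3. This difference was -1.12 without BM-Treg 1, -1.15 without SP-Treg 1 and -0.44 without SP-Treg 3. D130062J21Rik, an overlapping gene on the same strand, had 5.85% as many counts as Bach2, and Gm20696 had 5.08% as many as Foxp1. Reads shared by such genes may have been split between them, and genes that overlap Tcf7, Ikzf1 and Ikzf4 had at most 0.993% as many.

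In CPM, SP-Treg 1 was the lowest SP-Treg library for Tcf7, Lef1, Bach2, Foxp1 and Id3. In FPKM this held for Tcf7, Bach2 and Foxp1. There SP-Treg 2 was lowest for Lef1 (38.35 against 40.99 FPKM in SP-Treg 1) and SP-Treg 3 for Id3 (8.89 against 9.07 FPKM). SP-Treg 1 was also the SP-Treg library with the lowest summed level of erythroid markers, given above. Whether either has a part in the other was not tested.

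ID2 and ID3 bind E proteins. Id2 (ENSMUSG00000020644, minus strand, chr12:25093801-25096092) was at 23.0, 31.2, 38.9 and 41.6 CPM in BM-Treg replicates 1 to 4 and at 20.9, 19.6, 20.3 and 24.1 CPM in SP-Treg replicates 1 to 4. BM-Treg 1 lay below SP-Treg 4, and the other BM-Treg libraries lay above all of SP-Treg. Id2 was 1.58-fold higher in BM-Treg (log2 fold change 0.66, 95% confidence interval 0.30 to 1.02, edgeR adjusted p = 0.0246), with a log2 fold change of 0.97 within batch 3 and 0.95 without BM-Treg 1 and BM-Treg 2 (edgeR adjusted p = 0.0127). This call was close to the threshold. DESeq2 also made it (DESeq2 adjusted p = 0.00612), whereas limma-voom did not (limma-voom adjusted p = 0.0544). The edgeR adjusted p was 0.0803 without BM-Treg 3, 0.0699 without BM-Treg 4, 0.0568 without SP-Treg 1, 0.0679 without SP-Treg 2 and 0.0577 without SP-Treg 3, as well as 0.0528 with batch as a term and 0.0643 in batch 3 alone, and over all alternatives it ran from 0.00383 to 0.0803.

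Id3 (ENSMUSG00000007872, plus strand, chr4:136143497-136145755) was at 10.03, 9.18, 8.99 and 9.95 CPM in BM-Treg replicates 1 to 4 and at 10.1, 15.9, 11.6 and 11.5 CPM in SP-Treg replicates 1 to 4. The groups did not overlap, but SP-Treg 1 and BM-Treg 1 were nearly level. The log2 fold change was -0.36, with a 95% confidence interval of -0.74 to 0.01 (edgeR adjusted p = 0.228), and -0.28 within batch 3. It was -0.22 without SP-Treg 2 (edgeR adjusted p = 0.534). The Id2 to Id3 ratio in FPKM was 2.21, 3.34, 4.25 and 4.10 in BM-Treg and 2.07, 1.22, 1.76 and 2.08 in SP-Treg. Each BM-Treg ratio was above each SP-Treg ratio, though BM-Treg 1 was close to SP-Treg 4, with a difference in the mean log2 ratio of 0.95 (exact permutation p = 0.0286, adjusted over 6 ratios 0.0571) and of 1.24 within batch 3.

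Helios, Eos and Ikaros had log2 fold changes near 0. Ikzf2 (ENSMUSG00000025997, minus strand, chr1:69531214-69685960) was at 2267, 2297, 2156 and 2059 CPM in BM-Treg replicates 1 to 4 and at 2611, 2067, 1997 and 1993 CPM in SP-Treg replicates 1 to 4. SP-Treg 1 was the highest library, SP-Treg 3 and SP-Treg 4 were the lowest, and the groups overlapped. The log2 fold change of Ikzf2 was 0.02, with a 95% confidence interval of -0.23 to 0.27 (edgeR adjusted p = 0.945), and it was -0.06 within batch 3.

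Ikzf4 (ENSMUSG00000002578, minus strand, chr10:128630843-128645991) was at 188, 229, 264 and 222 CPM in BM-Treg replicates 1 to 4 and at 255, 256, 214 and 244 CPM in SP-Treg replicates 1 to 4. The lowest and the highest library were both BM-Treg, replicates 1 and 3. The log2 fold change was -0.10, with a 95% confidence interval of -0.34 to 0.14 (edgeR adjusted p = 0.635), and it was -0.12 within batch 3. Ikzf1 (ENSMUSG00000018654, plus strand, chr11:11685003-11772926) was at 573, 547, 562 and 583 CPM in BM-Treg replicates 1 to 4 and at 551, 567, 629 and 555 CPM in SP-Treg replicates 1 to 4. The log2 fold change of Ikzf1 was -0.02, with a 95% confidence interval of -0.22 to 0.18 (edgeR adjusted p = 0.915), and 0.02 within batch 3. Within the family, the log2 ratio of Ikzf2 to Ikzf4 differed by 0.10 between the tissues (exact permutation p = 0.543) and that of Ikzf2 to Ikzf1 by -0.09 (exact permutation p = 0.629), or by 0.07 and -0.28 within batch 3. The signs of these small differences carry no call, and those of Foxp1, Ikzf1, Ikzf2 and Ikzf4 changed in some of the alternative settings.

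**Figure D3:**
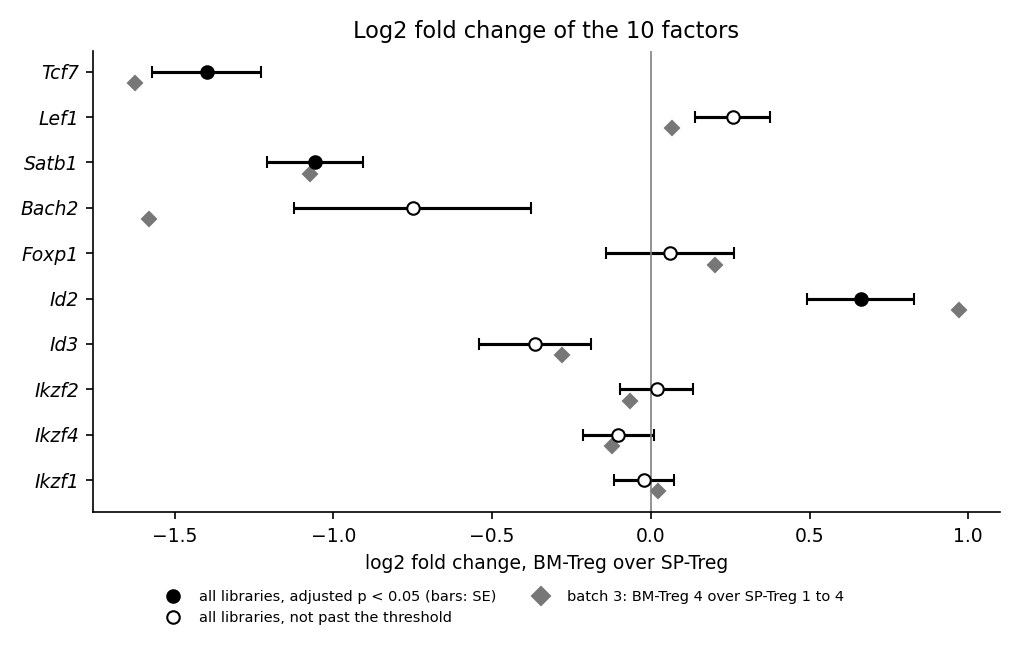
Log2 fold change of BM-Treg over SP-Treg for each of the 10 factors (circles, with bars for the SE of the fit over 8 libraries, filled where the edgeR adjusted p was below 0.05) and the log2 fold change within batch 3 (grey diamonds, without error since 1 BM-Treg library belongs to it). Tcf7 (-1.40) and Satb1 (-1.06) lay to the left of 0 and Id2 (0.66) to the right, and the batch 3 values of these factors lay on the same side.

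**Figure D4:**
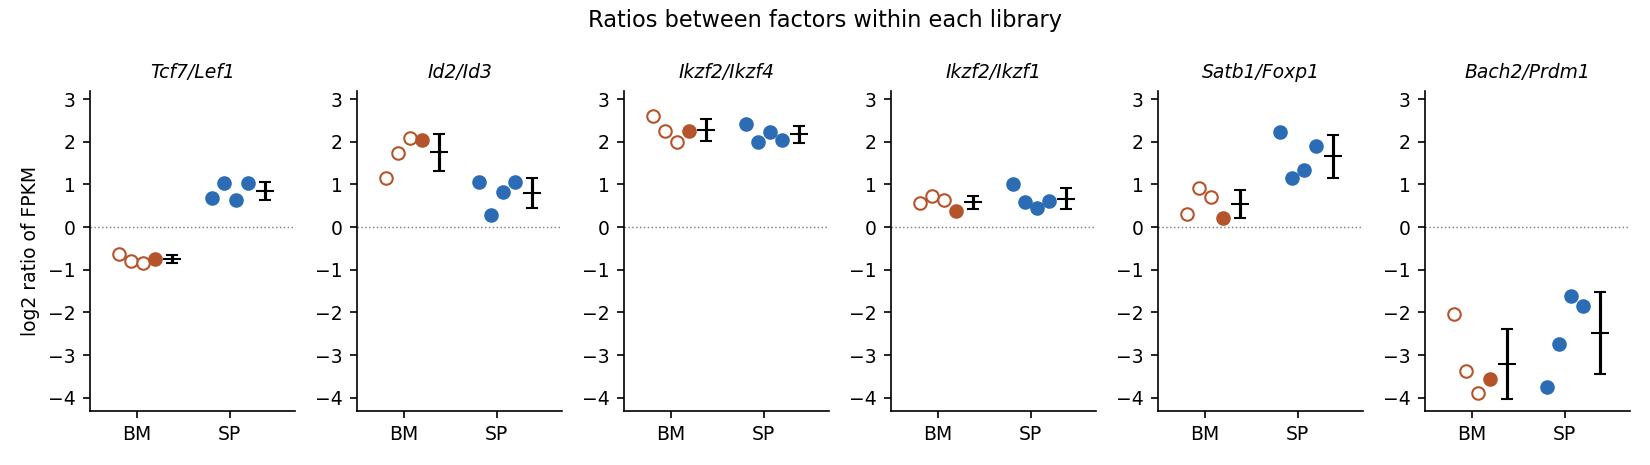
Log2 ratio of FPKM values (pseudocount 0.1) between pairs of genes in each library, with open circles for libraries labelled female and the mean and SD of each group as a bar at its right. The Tcf7/Lef1 ratio was below 0 in each BM-Treg library and above 0 in each SP-Treg library, and the Ikzf2/Ikzf4 and Ikzf2/Ikzf1 ratios overlapped between the tissues.

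Of the 6 ratios, 3 (Tcf7/Lef1, Id2/Id3 and Satb1/Foxp1) reached the smallest exact p that 4 against 4 libraries allow, and 0 passed 0.05 after adjustment. With this smallest p, at least 4 of the 6 would have had to reach it for any to pass. In the plot of ratios these are the pairs whose groups do not overlap.

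The order of the factors by level could be compared per length, in FPKM. In SP-Treg, Ikzf2 was highest with a mean level of 228 ± 48.4 FPKM, followed by Satb1 with 210.4 ± 47.3 FPKM (SD, n = 4). The libraries of this pair overlapped, whereas Ikzf1 came next at 142 ± 6.04 FPKM and lay below Satb1 in every library. Tcf7 took rank 4 with 76.9 ± 11.5 FPKM, overlapping Foxp1 at 68.5 ± 21.8 FPKM. Ikzf4 (50.05 ± 5.96 FPKM) overlapped Foxp1 above it and Lef1 (42.6 ± 3.53 FPKM) below it. Id2 (17.4 ± 2.06 FPKM), Bach2 (13.3 ± 5.96 FPKM) and Id3 (10.005 ± 1.83 FPKM) were the lowest, and neighbours among them overlapped.

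In BM-Treg, Ikzf2 was again highest at 241 ± 20.5 FPKM, above Ikzf1 at 161 ± 6.62 FPKM and Satb1 at 108 ± 8.98 FPKM (SD, n = 4), with no overlap between these neighbours. Foxp1 (75.5 ± 14.7 FPKM) lay below Satb1 in every library and overlapped Lef1 (51.3 ± 10.1 FPKM), which overlapped Ikzf4 (50.025 ± 8.74 FPKM). Tcf7 took rank 7 with 30.6 ± 7.72 FPKM, overlapping Ikzf4 above it and Id2 (28.7 ± 6.53 FPKM) below it. Bach2 (8.60 ± 4.50 FPKM) and Id3 (8.27 ± 0.478 FPKM) were lowest and overlapped each other. The level of Tcf7 in BM-Treg was thus not separated from that of Id2, a gene it exceeded in every library of SP-Treg.

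The genes with profiles most like Tcf7 across the 8 libraries were Aff3, Angptl2, Zfp608, Trib2 and Brca1, with root mean squared differences in centred log2 CPM from 0.213 for Aff3 to 0.267 for Brca1, among 8556 genes. Aff3, the closest, was at 53.6, 36.0, 27.8 and 43.4 CPM in BM-Treg replicates 1 to 4 and at 82.0, 90.7, 107 and 119 CPM in SP-Treg replicates 1 to 4. Like Tcf7, it had no overlap between the tissues, but it was picked for its likeness to Tcf7 in these libraries, so this is not a separate finding. The profiles most like Lef1 were those of Pan2, Tmem63b, Mapk8ip3, Baz2b and Cpsf4, with differences from 0.0609 for Pan2 to 0.0804 for Cpsf4. Lef1 varied less than Tcf7 across the libraries, and small differences are easier to reach for such a profile.

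TCF-1 and LEF1 act with the partners of the beta-catenin pathway. Of 20 such genes, 18 were tested, of which 1 was higher and 0 lower in BM-Treg, with a median log2 fold change of 0.11 against -0.01 over all genes tested. Of all genes tested, 8.75% passed the threshold. The gene past the threshold was Bcl9l, a cofactor of beta-catenin, at 135, 126, 134 and 129.7 CPM in BM-Treg replicates 1 to 4 (log2 fold change 0.42, or 0.41 within batch 3, edgeR adjusted p = 0.0335). Axin2, a target and inhibitor of the pathway named here after its values were seen, had a log2 fold change of 0.76 (0.90 within batch 3) and did not pass the threshold with edgeR, while each BM-Treg library exceeded each SP-Treg library. It passed with limma-voom and DESeq2, as Bcl9l did. Tle1, which encodes a corepressor and passed with DESeq2 only, had a log2 fold change of -0.65 (-0.74 within batch 3), and each of its BM-Treg libraries lay below each SP-Treg library. In this list 6 of the 18 genes had an unadjusted p below 0.05 with edgeR, as did 23.3% of all genes tested. Genes of the same families as the other factors gave no calls with edgeR: 0 of 4 genes tested from a list of E proteins and ID proteins, none of the 4 an ID gene (median -0.11), 0 of 15 genes of the Ikaros family and the NuRD complex that works with it (median -0.08), and 0 of 7 relatives and partners of FOXP1, SATB1 and BACH2 (median 0.25). At an unadjusted p below 0.05 the counts with edgeR were 0, 1 and 1, and limma-voom and DESeq2 called 0 in each of these lists. With 8.75% of all genes tested past the threshold, counts of 0 in lists this short are not a result about these families.

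The remaining lists describe the resting and the effector side of Treg. Of 15 resting (central) Treg genes tested, 4 were lower and 2 higher in BM-Treg, with a median log2 fold change of -0.08. Of all genes tested, 5.02% were lower and 3.72% higher. Ccr7, the receptor that guides T cells into lymphoid organs, was at 17.7, 15.5, 18.0 and 20.6 CPM in BM-Treg replicates 1 to 4 and had a mean of 44.0 ± 18.8 CPM in SP-Treg (SD, n = 4). It was lower in BM-Treg by a log2 fold change of -1.30 (edgeR adjusted p = 0.0163), as were Igfbp4 (-3.05, at a low level of 0.370 ± 0.371 against 2.85 ± 2.03 CPM), Actn1 (-1.07) and Bcl2 (-0.99), which encodes an inhibitor of apoptosis. Il7r (0.82) and Il6ra (0.55), which encode cytokine receptors, were higher in BM-Treg. Klf2 (0.23), which encodes a factor that controls T cell migration, did not pass the threshold and was named here after its values were seen. Within batch 3 the log2 fold changes were -0.99 for Ccr7, -1.22 for Igfbp4, -1.37 for Actn1, -1.41 for Bcl2, 0.82 for Il7r and 0.58 for Il6ra, and the median of the list was 0.01.

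Of 20 effector Treg genes, all tested, 4 were higher and 5 lower in BM-Treg, with a median log2 fold change of -0.26. The shares over all genes tested were 3.72% higher and 5.02% lower. Klrg1 (1.07), Il1rl1 (1.04), Fgl2 (1.02) and Gata3 (0.43) were higher. Irf4 (-1.14), Itgae (-0.91), Tigit (-0.68), Batf (-0.56) and Icos (-0.49) were lower. Within batch 3, Irf4, a factor of effector Treg that follows T cell receptor signals, had a log2 fold change of -1.21 and Klrg1, a receptor of differentiated T cells, 1.55. There, Il1rl1 had 1.27, Fgl2 0.73, Gata3 0.46, Itgae -0.78, Tigit -0.64, Batf -0.57 and Icos -0.37. With limma-voom and DESeq2 10 genes of this list passed, these 9 and Tnfrsf9 (log2 fold change -0.65). The median of the list within batch 3 was -0.20, against 0.01 over all genes tested. Both lists thus held genes past the threshold in either direction, as did the 10 factors.

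**Figure D5:**
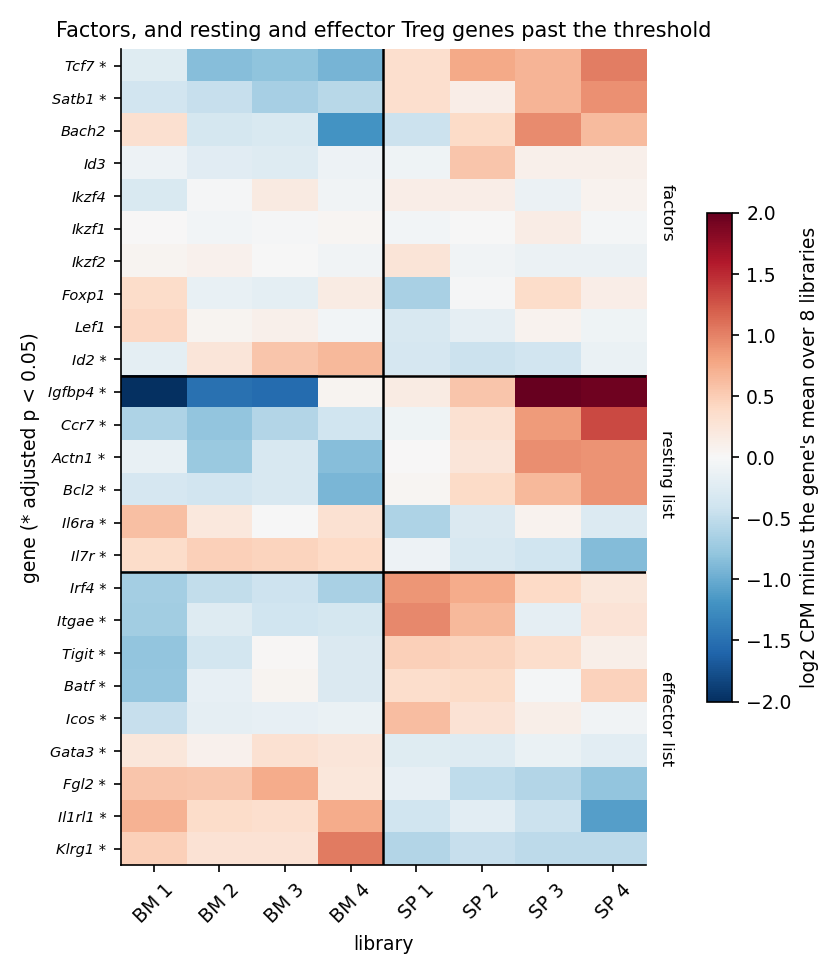
Log2 CPM minus the mean of the gene over 8 libraries for the 10 factors and for the 6 resting and 9 effector Treg genes past the threshold in each library, ordered in each list by log2 fold change, with an asterisk where the edgeR adjusted p was below 0.05 and colours that stop at 2 above and below the mean. In both the resting and the effector list, genes lower in BM-Treg (Ccr7, Irf4) and genes higher in BM-Treg (Il7r, Klrg1) are found.

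Genes that respond within minutes to stimulation or to cell isolation also differed. The 10 immediate early genes, of which Dusp1 had the highest mean over all libraries, summed to 870, 951, 1498 and 1382 CPM in BM-Treg replicates 1 to 4 and to 553, 702, 883 and 871 CPM in SP-Treg replicates 1 to 4. Of the 9 tested, 5 passed the threshold with edgeR, as did 8.75% of all genes tested. Fosb, Junb and Dusp1 were higher in BM-Treg, and Egr1 and Egr2 were lower. With limma-voom and DESeq2 6 passed, these and Fos, which had a log2 fold change of 1.43 (edgeR adjusted p = 0.0712). Within batch 3 the log2 fold changes were 3.41 for Fosb, 1.39 for Junb, 1.64 for Dusp1, -0.58 for Egr1, -2.79 for Egr2 and 2.09 for Fos. Whether they have a part in the levels of Tcf7, Satb1 or Id2 was not tested. Among markers of other cells, Cd8a and Ebf1 were lower in BM-Treg, at 1.09 ± 0.419 and 0.843 ± 0.395 CPM in BM-Treg (SD, n = 4), with their highest levels of 21.1 and 11.1 CPM in SP-Treg 2 and log2 fold changes of -2.74 and -1.99 within batch 3. Both edgeR and DESeq2 called this pair, and limma-voom called neither. The 4 plasma cell markers summed to at most 0.557 CPM in BM-Treg and to 0.575, 26.7, 9.96 and 7.28 CPM in SP-Treg replicates 1 to 4. None of them passed the filter on low counts of edgeR, and DESeq2 called 1, Igj. The 7 pro-B and pre-B cell markers, which include Ebf1, summed to between 1.25 and 12.5 CPM with Igll1 at 0 in every library, and the 2 CD8 T cell markers to between 10.9 and 41.1 CPM. Markers of plasmacytoid dendritic cells (28.1 to 68.8 CPM), of macrophages and dendritic cells (43.3 to 68.0 CPM), of NK cells and ILC (11.3 to 33.8 CPM) and of neutrophils and their precursors (0.216 to 16.9 CPM) had no gene past the threshold with edgeR, and 0, 0, 0 and 1 at an unadjusted p below 0.05, while DESeq2 called 0, 0, 1 and 1 and limma-voom 0 in each. Of the erythroid genes, 6 were tested and 0 passed with edgeR, while 6 had an unadjusted p below 0.05, DESeq2 called 4 and limma-voom 0. Of the B cell genes, 6 were tested and 0 passed with edgeR, while 4 had an unadjusted p below 0.05, DESeq2 called 2 and limma-voom 0. In the fit without SP-Treg 2, which keeps the SP-Treg libraries with the highest erythroid sums, the log2 fold changes of Tcf7, Satb1 and Id2 were -1.39, -1.17 and 0.62 (edgeR adjusted p = 0.00257, 0.000467 and 0.0679), so that Id2 did not pass there.

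RefSeq promoter windows, 250 bases before to 50 after a start site, were found for 8 of the 10 factors (19 windows). They were searched on both strands for short motifs, and the share of all 32851 mouse windows with a match is given beside each. The TCF/LEF letters CTTTGAT (3.73% of all windows) had no match in the 19, and CTTTGTT (5.85%) was found in 4, of Foxp1 and Satb1, at 3 sites, since overlapping windows of Satb1 share a match. E box letters, to which E proteins bind, were found as CAGCTG (16.3%), which reads the same on both strands, in 4 windows of Id2, Lef1, Satb1 and Tcf7, and as CAGGTG (20.2%) in 5 windows of Foxp1, Lef1, Satb1 and Tcf7. Ikaros letters TGGGAA (25.6%) were found in 6 windows of Foxp1, Lef1 and Satb1, at 5 sites, since overlapping windows of Lef1 share a match, and the forkhead letters TGTTTAC (3.65%) in 1, the downstream window of Tcf7. The CAGCTG of Tcf7 lies within the open reading frame of its upstream window. A match says only that these letters are present.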

How the data were processed

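The authors deposited expected counts and FPKM values per gene and per transcript, with 1 column per library. The submitters' processing notes name cutadapt 1.9, STAR 2.5.2a, RSEM 1.2.30 and GRCm38. Amplified reads without molecular identifiers are not independent molecules, and strand was not stated, so that reads of antisense or overlapping genes cannot be told apart. For all 8 libraries, deposited expected counts were rounded, filtered with filterByExpr, scaled by TMM and tested with edgeR 4.0.16 (quasi-likelihood, robust, no covariate) in R 4.3.3, at 0.05 after Benjamini-Hochberg adjustment. limma 3.58.1 and DESeq2 1.42.0 served as alternatives. The tests were tried on simulated data. Ratios of the deposited FPKM values used a pseudocount of 0.1, and shares were percent of the gene's expected counts, each compared by exact permutation. Shares were tested for transcripts with a mean of at least 5%.

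Members and lists were chosen with earlier results of these data known, and 179 of 179 list entries were found. All 10 factors are named. From other lists, up to 4 genes past the threshold with the largest absolute log2 fold change are named, with any gene that a count of 5 or fewer is about. Genes most like Tcf7 or Lef1 were the 5 with the smallest root mean squared difference from its centred log2 CPM (prior count 2) among genes whose mean log2 CPM reached 3. No pair of libraries within a tissue was a duplicate (chi-square per degree of freedom 14.6 to 88.5).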

Additional observations from a re-analysis of the deposited data

Results flagged for a closer look

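Of 74 groups of 4 libraries, 8 had a library farther from the other libraries of its group than Dixon's 95% critical value allows, and chance flags about 1 in 20 groups. The Tcf7 level of 92.9 CPM in BM-Treg 1 lay above the 57.6 to 62.5 CPM of the other BM-Treg libraries. In BM-Treg 2 the Tcf7 transcript ENSMUST00000086844 had a share of 84.7% and, as its complement, ENSMUST00000109071 a share of 15.3%. Among Lef1 transcripts, ENSMUST00000098611 had a share of 0.622% in BM-Treg 3, with at most 0.00612% in the other BM-Treg libraries, and ENSMUST00000136147 a share of 19.8% in SP-Treg 1. Ikzf2 was at 2611 CPM in SP-Treg 1, above the 1993 to 2067 CPM of the other SP-Treg libraries. The B cell markers summed to 153 CPM in SP-Treg 2, and the Y-linked genes to 258 CPM in the same library, below the 282 to 286 CPM of the other SP-Treg libraries.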

How the results depend on the processing

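The direction and call of Tcf7 held in all 22 alternatives (log2 fold change -1.65 to -1.29, highest edgeR adjusted p 0.0267 with a batch term). Satb1 kept its direction (-1.17 to -0.91) and its call in 20 of 22, and Id2 its direction (0.55 to 0.99) and its call in 12 of 22. The number of genes past the threshold, 1172, was 765 with limma-trend on log2(FPKM + 1), 728 with a pseudocount of 0.1, 627 with a mean FPKM of at least 1, 427 at an adjusted p of 0.01, 258 with a batch term and 79 in batch 3 alone, where the lone BM-Treg library is assumed to vary like SP-Treg. It was 1730 with DESeq2, and 312 without BM-Treg 1 and BM-Treg 2, an alternative added after seeing the data. Leaving out each library in turn gave 690 to 1048 genes, the fewest without BM-Treg 2. With limma-trend on log2(FPKM + 1), 63.0% of calls were higher in BM-Treg, against 42.6% with edgeR on counts, a change of measure, scaling and test together, and the median of all genes moved from -0.01 to 0.05. Of the 10 factors, 3 passed in the fit without covariates, 1 with a batch term and 1 in batch 3 alone, and 2 to 3 when each library was left out. Of the transcripts of Tcf7 and Lef1, 1 passed without the count filter and 1 with limma-voom, the latter added after seeing the data, and 0 when each library was left out. Of all transcripts, 42 passed, 62 without the count filter, 38 with limma-voom, 125 with a batch term and 0 to 43 when each library was left out, the fewest without BM-Treg 2. Shares and ratios past the threshold numbered 0 in every alternative with a test, and 0 when each library was left out, but the smallest exact p that these libraries allow leaves little room for any to pass, so these counts do not measure stability. Apart from fewer libraries or a stricter threshold, the cause was not tested.

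The replicate numbers are shared by the tissues but do not pair the libraries (correlations of deviations -0.11, 0.06, -0.18 and 0.04, with 2 of 4 libraries closest to their own number). With the replicate number as a block, 948 genes, 3 factors and 0 of the tested transcripts of Tcf7 and Lef1 passed, with 1 of all 28756 transcripts.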
